A study of Mus musculus with 6 samples.

Results

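The genes of the translation initiation factors and of the aminoacyl-tRNA synthetases were compared between untreated and TGFB1-treated cells of m1102, a mouse line derived from the ovarian surface epithelium, the layer that covers the ovary. Members were chosen by gene symbol, and the comparison of the groups was not part of the rule. Symbols that start with Eif1 to Eif6 gave 51 initiation factor genes, leaving out the eIF2 kinases (Eif2ak) and pseudogenes. Symbols of the form Aars or Aars2, together with Eprs, gave 35 synthetase genes. These 86 genes were among 35688 rows of the deposited table. A symbol listed more than once was taken from its row of highest mean.

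Poly(A) RNA was sequenced from 3 libraries of untreated cells and from 3 libraries of cells given TGFB1, a cytokine known for inducing matrix genes, at 10 ng/mL for 4 days. Both groups grew in alpha-Minimum Essential Medium with serum, ITSS and the growth factor EGF. All 6 libraries came from this 1 line, and whether they came from separately treated cultures is not given, so the p-values measure a spread between samples that may be technical. The abundances, called TPM here, are corrected for transcript length, so that levels of different genes can be compared, and the read depth is unknown. RNA was measured, and the rate of translation and the amount of each protein were not.

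Translation of most mRNAs starts when the eIF4 proteins bind the cap and a small ribosomal subunit loaded with eIF1, eIF1A, eIF3, eIF5 and the eIF2-bound initiator tRNA scans to the start codon. The cell sets the rate mainly at 2 points, the recycling of eIF2 by eIF2B, which is blocked when an eIF2 kinase phosphorylates eIF2, and the access of eIF4G to the cap-binding eIF4E, which the 4E-BP proteins block when mTOR is inactive. A synthetase joins each amino acid to its tRNA, and most amino acids have one gene for the cytosol and another, with a symbol ending in 2, for the mitochondria. The transcription factor ATF4, made when eIF2 is phosphorylated, is known to induce many cytosolic synthetase genes together with genes of amino acid synthesis and import.

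The first TGFB1 library stood apart from the other libraries of its group. On the first principal component of all tested genes, which held 70.7% of the variance, TGFB1 replicate 1 lay at 46.6, replicates 2 and 3 at 20.2 and 18.1, and the untreated libraries between −29.8 and −27.1. Column totals ran from 983434 to 1026702 TPM. The surface epithelial and mesothelial markers Krt7, Krt18, Wt1, Upk3b, Msln, Lrrn4 and Gpm6a were present, while Krt8 stayed under 0.5 TPM in every library and Krt19 averaged 0.945 TPM. Of the 10 markers on that list 8 were tested, and 5 of them were called lower after TGFB1, against 14.6% of all tested genes. The log2 fold changes of these 8 ran from −2.25 to −0.19, with a median of −0.98. In 7 of the 8 each TGFB1 library lay below each untreated one, against 23.6% of all tested genes. The markers on the list summed to between 1751 and 1891 TPM in untreated libraries and to between 898 and 1234 TPM in TGFB1 libraries. Markers of other cell types were partly present and some moved with treatment. Of 6 granulosa markers 3 were tested: Foxl2 rose from 18.5 ± 1.1 to 22.7 ± 0.549 TPM, Inha fell from 16.9 ± 1.06 to 9.83 ± 2.27 TPM and Inhba was not called, while the receptor gene Fshr was listed at 0. The granulosa list summed to between 35.8 and 38.9 TPM in untreated and between 35.4 and 36.1 TPM in TGFB1 libraries. Of 5 theca and stroma markers 2 were tested and called, Star lower (299.6 ± 23.9 to 143 ± 55.7 TPM) and Nr5a1 higher (56.0 ± 1.99 to 66.8 ± 1.43 TPM), with Lhcgr at 0 and list sums of 336 to 380.0 and 145 to 250.4 TPM. The macrophage gene Cd68, the only tested blood marker of 6, fell from 22.7 ± 4.09 to 8.79 ± 1.42 TPM, with Ptprc under 0.5 TPM and Hbb-bs at 0, and the blood list summed to between 18.6 and 26.3 TPM untreated and between 7.25 and 9.98 TPM treated. Of 5 endothelial and 4 smooth muscle and pericyte markers, 1 each was tested and neither was called, Pecam1 at a mean of 1.21 TPM and Des at 1.51 TPM. The endothelial list summed to at most 1.27 TPM untreated and 2.30 TPM treated, the other to at most 0.926 and 3.29 TPM, and Kdr, Cdh5 and Myh11 were under 0.5 TPM. What part these markers have in the values below was not tested. In RNA from a whole culture, fewer cells of a type and less RNA per cell cannot be told apart.

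After TGFB1, the initiation factor and synthetase genes changed in few cases and by small amounts. Of 47 tested initiation factor genes 4 rose (Eif5a2, Eif1, Eif4g2 and Eif4g3) and 0 fell, which is 8.51% of them. Of 35 tested synthetase genes, 1 rose and 1 fell (Iars2), which is 5.71%. Over all 12257 tested genes 30.4% were called, 15.8% higher and 14.6% lower, and 39.1% of the 3476 genes that averaged at least 50 TPM were called. A gene was called at a Benjamini-Hochberg adjusted p under 0.05 over all tested genes in limma on log2(TPM + 1). At an unadjusted p under 0.05, 11 of 47 factor genes and 6 of 35 synthetase genes passed, against 5227 of all 12257 tested genes.

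**Figure D1:**
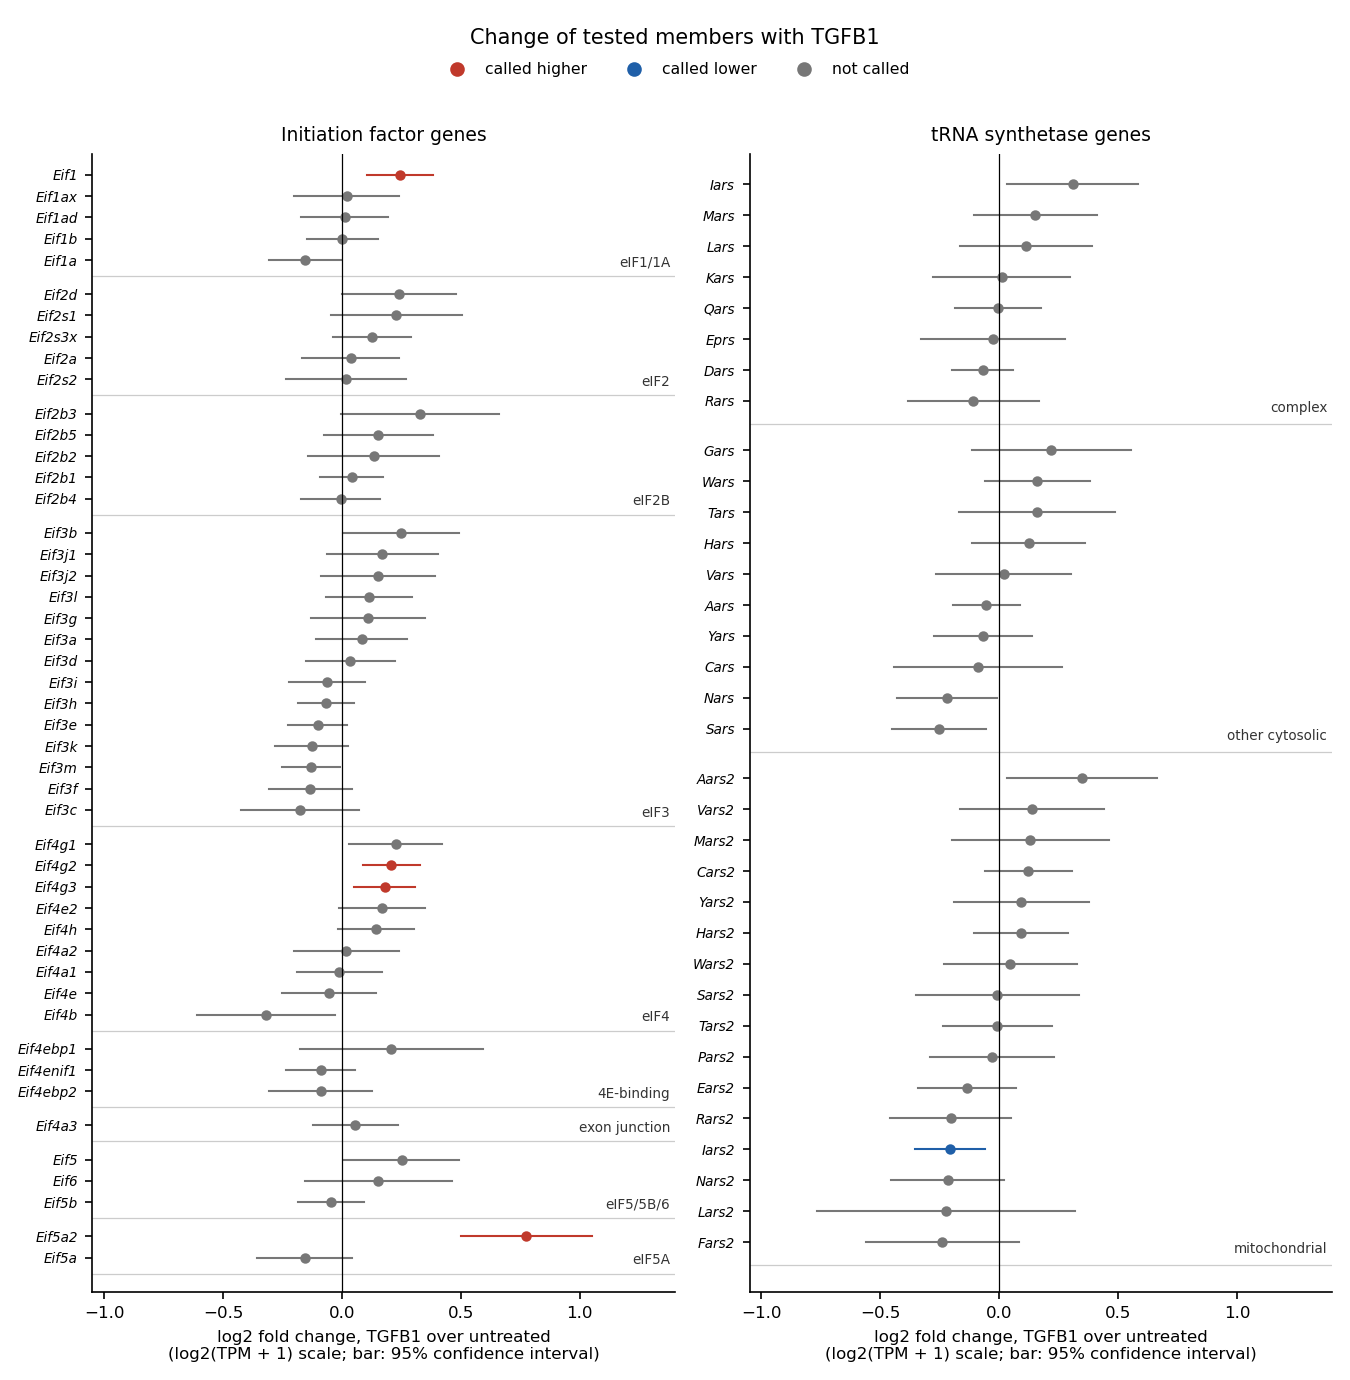
Each point is the log2 fold change of 1 gene on the log2(TPM + 1) scale, TGFB1 over untreated (n = 3 per group), with its 95% confidence interval from limma as a bar. Genes are grouped by role and ordered by change within a role. All values lie between −0.32 and 0.78, and called genes are coloured.

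The sizes of the changes set both classes beside all genes. Log2 fold changes of the factor genes ran from −0.32 to 0.78 with a median of 0.04, and those of the synthetase genes from −0.25 to 0.35 with a median of −0.01. The median absolute change was 0.13 in the factor genes, 0.12 in the synthetase genes and 0.21 in all tested genes. In tested genes that averaged at least 50 TPM it was 0.20. No member changed by 2-fold or more on this scale, which 5.76% of all tested genes did. The 95% confidence interval of the change lay within 1.5-fold in either direction for 43 of 47 factor genes (91.5%) and for 33 of 35 synthetase genes (94.3%). The same held for 63.3% of all tested genes and for 73.2% of those that averaged at least 50 TPM. The members with a wider interval were Eif5a2, Eif2b3, Eif4b, Eif4ebp1, Aars2 and Lars2.

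**Figure D2:**
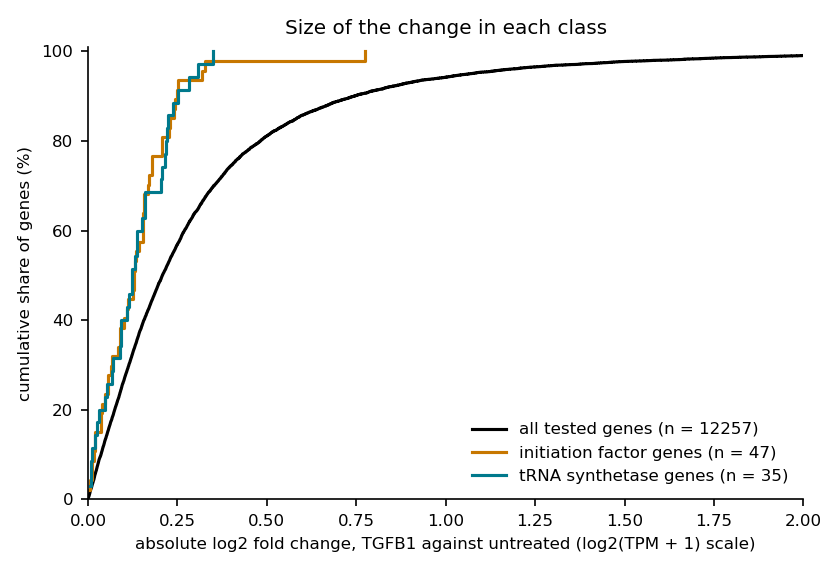
The curves give the cumulative share of genes, in percent, against the absolute log2 fold change on the log2(TPM + 1) scale for 47 initiation factor genes, 35 synthetase genes and all 12257 tested genes (x axis cut at 2). Both member curves rise to their top at 0.78 or below, with Eif5a2 the single step beyond 0.35, while the curve of all genes goes on beyond 1.

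The factor genes and the cytosolic synthetase genes were mostly abundant, while the median of the mitochondrial synthetase genes lay under that of all tested genes. The means of the tested factor genes over the 6 libraries ran from 4.88 to 978 TPM with a median of 143, against a median of 23.0 TPM over all tested genes. Cytosolic synthetase genes ran from 42.4 to 467 TPM (median 76.3) and mitochondrial ones from 1.70 to 222 TPM (median 12.6). The 4 members with a mean under 1 TPM were not tested: Eif4e1b and Eif4e3, which encode eIF4E relatives, the Y-linked eIF2 gamma gene Eif2s3y, and the 4E-BP gene Eif4ebp3. All 35 synthetase genes were tested.

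**Figure D3:**
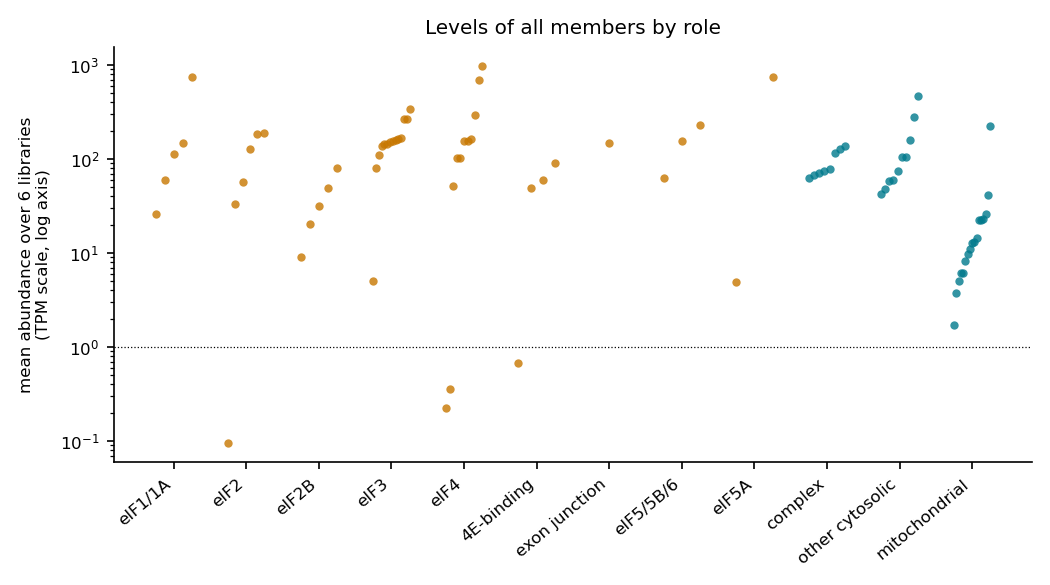
Each point is the mean abundance of 1 member over the 6 libraries, on a log axis in TPM, grouped by role (initiation factors in orange, synthetases in teal). The dotted line marks the filter of 1 TPM, with 4 initiation factor genes under it, and 16 of the 17 mitochondrial synthetase genes lie under the lowest cytosolic one, with Lars2 as the exception.

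Among the factors of start codon scanning, Eif1 rose and Eif1a, Eif1ax, Eif1b and Eif1ad did not pass the test. eIF1 sits near the ribosomal P site and keeps the scanning complex from stopping at a poor start codon. Eif1 (ENSMUSG00000035530, GENCODE M21, GRCm38, chr11:100319885-100322096, plus strand) measured 678, 693 and 676 TPM untreated and 866, 788 and 773 TPM with TGFB1. Each TGFB1 library was above each untreated library, and TGFB1 replicate 1 was the highest. The mean went from 682 ± 9.08 to 809 ± 49.98 TPM (SD, n = 3 per group here and throughout), a log2 fold change of 0.24 with a standard error of 0.06 and a limma adjusted p of 0.0226. Eif1a, on the other side, went from 157 ± 2.31 to 141 ± 9.65 TPM without overlap, at an adjusted p of 0.108. Of the 31-base stretches of the Eif1 transcripts 23.0% also occur in other genes, on either strand, most of them in Emd, which measured 63.1 ± 4.98 and 68.8 ± 4.95 TPM.

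The genes that deliver the initiator tRNA and recharge eIF2 did not pass the test. eIF2 is a complex of 3 subunits, encoded by Eif2s1, Eif2s2 and Eif2s3x in these cells, and eIF2B is the 5-subunit exchange factor that returns it to its GTP-bound form. The eIF2 group also counts Eif2a and Eif2d, for other routes of initiator tRNA delivery. Its 5 tested genes all had a log2 fold change above 0, from 0.02 to 0.24, against 6353 of all 12257 tested genes. Of the 5, 0 were called, against 30.4% of all tested genes. TGFB1 replicate 1 was the highest library in all 5, against 29.6% of all tested genes. In 2 of the 5, against 5043 of all 12257, TGFB1 replicates 2 and 3 lay below the untreated mean. For Eif2s1, the subunit that the eIF2 kinases phosphorylate, the values were 123, 111 and 115 TPM untreated and 162, 132 and 118 TPM with TGFB1. The third TGFB1 library lay within the untreated range, and the adjusted p was 0.181. The 5 eIF2B genes ran from −0.01 to 0.33, with Eif2b3 as the upper end (7.89 ± 1.18 to 10.2 ± 1.64 TPM, adjusted p = 0.122).

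The eIF3 genes, which encode the scaffold that holds the small subunit and the other factors together, had small log2 fold changes on both sides of 0. None of the 14 was called in limma, against 30.4% of all tested genes. An unadjusted p under 0.05 was found for 2, Eif3b and Eif3m (all tested genes: 5227 of 12257). The log2 fold changes ran from −0.18 for Eif3c to 0.25 for Eif3b, 7 of 14 above 0. Every 95% confidence interval stayed within 1.5-fold, against 63.3% of all tested genes. Eif3b encodes the subunit with RNA recognition and propeller domains and went from 153 ± 8.84 to 183 ± 25.2 TPM (adjusted p = 0.110). Eif3m measured 145, 148 and 142 TPM untreated and 135, 129 and 133 TPM with TGFB1, so that all treated libraries were below all untreated ones by a small margin (log2 fold change −0.13, adjusted p = 0.0977). The groups did not overlap in 7 of the 14 genes, 3 with TGFB1 above and 4 with TGFB1 below. Over all tested genes the groups did not overlap in 49.8%, with TGFB1 above in 26.3% and below in 23.6%. Eif3h, the most abundant eIF3 gene, went from 346 ± 11.5 to 331 ± 3.96 TPM and Eif3k from 275 ± 5.66 to 252 ± 17.8 TPM, with adjusted p of 0.354 and 0.178. Eif3j1 and Eif3j2 are near-identical copies, so their split is uncertain: 94.9% of the 31-base stretches of Eif3j2 are shared.

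In the eIF4 group, Eif4g2 and Eif4g3 rose. Eif4g2 encodes DAP5, an eIF4G relative that lacks the eIF4E-binding region and supports cap-independent initiation, and Eif4g3 encodes eIF4GII, a scaffold that bridges eIF4E and eIF3. Eif4g2 (ENSMUSG00000005610, chr7:111067750-111083030, minus strand) measured 628, 632 and 642 TPM untreated and 764, 726 and 709 TPM with TGFB1. The untreated values were tightly grouped and all 3 treated values lay above them. The log2 fold change was 0.21 with a standard error of 0.05 and a limma adjusted p of 0.0224. Eif4g3 (ENSMUSG00000028760, chr4:137993022-138208508, plus strand) measured 48.7, 47.9 and 49.7 TPM untreated and 56.1, 55.9 and 54.0 TPM with TGFB1. These groups did not overlap either, and the log2 fold change was 0.18 with a standard error of 0.05 and a limma adjusted p of 0.0459.

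The third scaffold gene, Eif4g1, encodes the main eIF4G and had values of 150, 131 and 145 TPM untreated and 182, 158 and 159 TPM with TGFB1. The groups did not overlap, but the limma adjusted p was 0.0807 for a log2 fold change of 0.23. Eif4g1 was called higher after rescaling without mitochondrially encoded genes and the 20 most abundant genes (limma adjusted p = 0.0376). It was also called with replicate number as a block (0.0394), while Eif4g3 lost its call in 9 of 16 alternatives. Which of these scaffold genes passed thus varied with the processing. In the main fit all 3 eIF4G genes had log2 fold changes between 0.18 and 0.23, and the share of Eif4g2 in their sum was 76.9 ± 1.0% untreated and 76.8 ± 0.536% with TGFB1. The mixture of the 3 scaffold transcripts was therefore nearly the same in both groups. The cap-binding gene Eif4e measured 165 ± 17.7 and 158 ± 5.28 TPM (adjusted p = 0.651). The helicase gene Eif4a1, the most abundant member, measured 982.5 ± 76.0 and 974 ± 57.5 TPM, a log2 fold change of −0.01, and its relative Eif4a2 measured 102 ± 6.43 and 103 ± 10.9 TPM.

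Eif4b had the lowest log2 fold change of all members, −0.32. It encodes a cofactor that raises the activity of the helicase. Its values were 146, 203 and 171 TPM untreated and 127, 141 and 145 TPM with TGFB1. All treated values lay below all untreated ones, by a narrow gap against untreated replicate 1, and the spread in the untreated group was wide (limma adjusted p = 0.0924). The helicase cofactor Eif4h went the other way, from 276 ± 2.96 to 306 ± 25 TPM, also without overlap (adjusted p = 0.156). With quantile normalization Eif4h was called higher (limma adjusted p = 0.0464).

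The inhibitors of eIF4E and the factors of subunit joining did not pass the test. Eif4ebp1, the gene of 4E-BP1, measured 86.3, 73.0 and 89.6 TPM untreated and 123, 86.3 and 82.2 TPM with TGFB1. Only TGFB1 replicate 1 stood above the untreated range (log2 fold change 0.21, adjusted p = 0.371). Eif4ebp2 measured 61.8 ± 5.61 and 57.9 ± 4.56 TPM (adjusted p = 0.487). Eif5, the gene of the eIF2 GTPase-activating factor, measured 220, 208 and 197 TPM untreated and 289, 229 and 229 TPM with TGFB1. The groups did not overlap, with 1 treated library far above the other two, and the adjusted p was 0.109 at a log2 fold change of 0.25. Eif4a3, whose product is a core part of the exon junction complex and not an initiation helicase, measured 144 ± 9.53 and 150 ± 10.0 TPM.

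Eif5a2 had the largest change of all members. eIF5A carries hypusine, an amino acid found in no other protein, and helps the ribosome over difficult peptide bonds. Mammals have 2 genes for it, the widely expressed Eif5a and Eif5a2, which most tissues hold at low levels and which was described in cancers. Eif5a2 (ENSMUSG00000050192, chr3:28781276-28798846, plus strand) measured 2.93, 3.41 and 3.67 TPM untreated and 6.82, 6.73 and 5.72 TPM with TGFB1. The lowest treated library was above the highest untreated one by a wide margin, and TGFB1 replicate 1 did not stand out from replicate 2. The mean went from 3.34 ± 0.374 to 6.42 ± 0.611 TPM, with a log2 fold change of 0.78, a standard error of 0.12 and a limma adjusted p of 0.00426. The pseudocount damps a change at this level, and with a pseudocount of 0.1 the log2 fold change was 0.93.

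Eif5a is far more abundant and was not called. It measured 825, 737 and 800 TPM untreated and 790, 663 and 670 TPM with TGFB1, a log2 fold change of −0.16 with an adjusted p of 0.203. Eif5a2 therefore made up 0.354, 0.461 and 0.456% of the transcripts of both genes in the untreated libraries and 0.856, 1.004 and 0.846% in the TGFB1 libraries. The share was higher in each treated library and remained near 1% at most. The genes of the 2 enzymes that make hypusine, Dhps and Dohh, were not called, with log2 fold changes of 0.17 and 0.00.

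Eif5a2 was the called member with the largest change that holds an E-box (CACGTG), and its call held in every alternative that tested it. For these reasons the 250 bases before its RefSeq start are shown. They lie at chr3:28781027-28781276 on the plus strand of GRCm38.p6, hold 68.4% G and C, and the capitals mark 2 copies of the E-box CACGTG, a palindrome bound by MYC among other factors.
Eif5a2: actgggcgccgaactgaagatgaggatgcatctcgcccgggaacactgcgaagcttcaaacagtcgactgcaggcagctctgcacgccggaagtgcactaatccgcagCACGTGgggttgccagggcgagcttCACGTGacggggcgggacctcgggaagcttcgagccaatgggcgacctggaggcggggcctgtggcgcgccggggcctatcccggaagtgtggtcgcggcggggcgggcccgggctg
In windows from 250 bases before to 50 after a RefSeq start, the E-box occurred in 10 of 39 factor genes with a window and in 4 of 24 synthetase genes, against 8.09% of all 27025 genes with a window (7.15% of 32851 windows). Those genes include Eif4e, Eif4g1, Eif4a1 and Eif5a, which did not pass the test. The called genes Eif1, Eif4g3 and Iars2 hold no E-box in the 250 bases before their starts. Myc itself measured 7.12, 6.95 and 6.18 TPM untreated and 35.0, 13.1 and 11.04 TPM with TGFB1. It rose (log2 fold change 1.24, limma adjusted p = 0.0494), with TGFB1 replicate 1 far above the others. Without that library the log2 fold change of Myc was 0.75 (adjusted p = 0.00315), and its call was lost without TGFB1 replicate 2 or any 1 untreated library. A match of letters is a description and shows no binding.

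**Figure D4:**
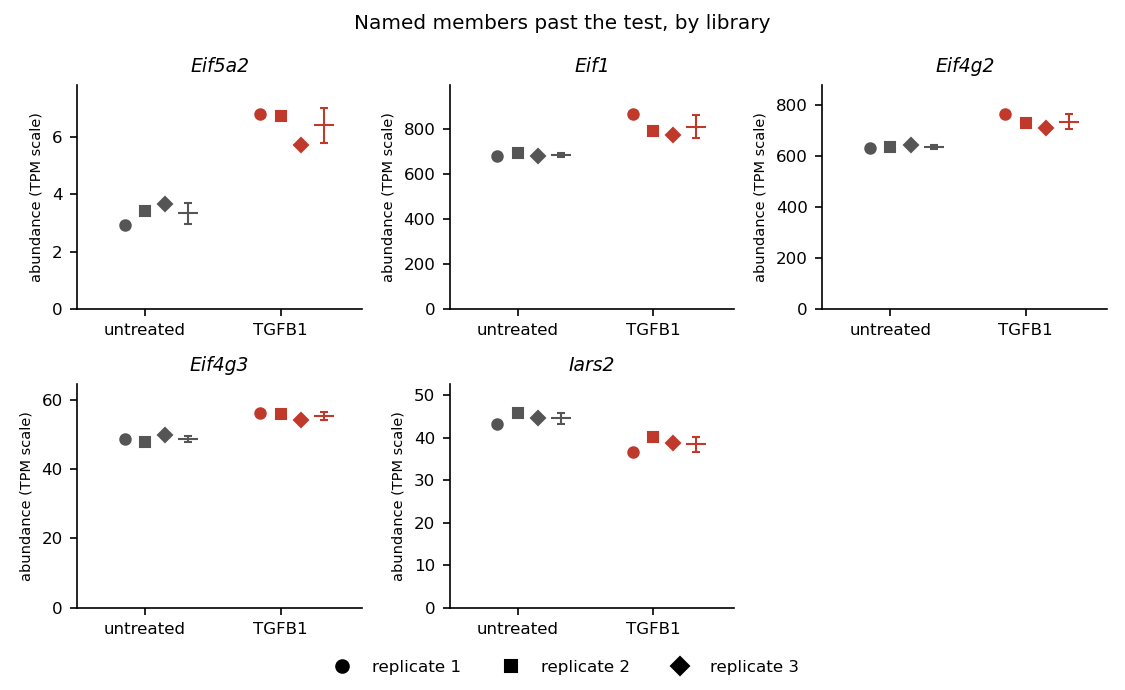
Abundance in TPM, on axes that start at 0, of 5 called members in each library, with the mean and SD of each group at its right (n = 3). In each panel the untreated and TGFB1 values do not overlap, and for Eif5a2 the highest untreated value is 3.67 and the lowest treated value 5.72 TPM.

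Of the synthetase genes, none of the 18 cytosolic ones was called in limma, against 30.4% of all tested genes. An unadjusted p under 0.05 was found for 3, Iars, Nars and Sars, against 5227 of all 12257 tested genes. All 18 confidence intervals lay within 1.5-fold, against 63.3% of all tested genes, and the median log2 fold change was 0.00. Nars, the asparaginyl enzyme gene and the most abundant synthetase, measured 516, 463 and 527 TPM untreated and 480, 420 and 395 TPM with TGFB1. Sars, for serine, measured 309, 290 and 313 TPM untreated and 287, 239 and 241 TPM with TGFB1, each treated library below each untreated one. Their log2 fold changes were −0.22 and −0.25, with limma adjusted p of 0.106 and 0.0604. Iars, for isoleucine, measured 62.5, 55.6 and 60.3 TPM untreated and 88.0, 69.4 and 65.8 TPM with TGFB1, also without overlap, in the other direction (log2 fold change 0.31, adjusted p = 0.0862). In alternative fits, Iars was called higher after rescaling without mitochondrially encoded genes and the 20 most abundant genes (limma adjusted p = 0.0492). With replicate number as a block, Iars was called higher (0.0483) and Sars lower (0.0466). Sars was also called lower with median-of-ratios scaling (0.0487) and without TGFB1 replicate 1 (0.00356).

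Of the cytosolic genes, 8 encode enzymes of the multisynthetase complex, which gathers synthetases on scaffold proteins. Their log2 fold changes ran from −0.11 (Rars) to 0.31 (Iars), and the 10 others ran from −0.25 (Sars) to 0.22 (Gars). The glutaminyl and lysyl genes were close to level: Qars from 128 ± 10.9 to 127 ± 5.38 and Kars from 114 ± 7.82 to 116 ± 19.7 TPM. Rars, for arginine, measured 142 ± 10.2 TPM untreated and 133 ± 21.0 TPM with TGFB1 (log2 fold change −0.11, adjusted p = 0.514), and without TGFB1 replicate 1 its log2 fold change was −0.23 and it was called lower (adjusted p = 0.0447). Gars and Kars also supply the mitochondria, where no second gene exists for them.

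The cytosolic synthetase genes shared an order of the libraries that did not follow the groups. TGFB1 replicate 1 was the highest of the 3 treated libraries in 18 of 18 cytosolic genes and in 39 of 47 factor genes (83.0%), but in 7 of 17 mitochondrial synthetase genes (41.2%), against 41.2% of all tested genes. The median log2 ratio of the cytosolic genes to their untreated mean was 0.27 in TGFB1 replicate 1, −0.07 in replicate 2 and −0.11 in replicate 3. In the untreated libraries it was 0.07, −0.10 and 0.02, with untreated replicate 2 the lowest of its group in 16 of 18 genes. That library was also lowest in 11 of 17 mitochondrial synthetase genes, 26 of 47 factor genes and 33.1% of all tested genes. Of 21 tested genes of the ATF4 and amino acid response it was lowest in 17. For the factor genes the medians of the TGFB1 libraries were 0.18, 0.04 and −0.02, and for all tested genes 0.01, 0.02 and 0.01. The summed level of the cytosolic genes was 2235, 2037 and 2205 TPM untreated and 2395, 1976 and 1920 TPM with TGFB1, so that the highest and the lowest of the 6 sums were both treated libraries. These counts were made after the position of TGFB1 replicate 1 had been seen, and the part of that library's difference in them was not tested.

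**Figure D5:**
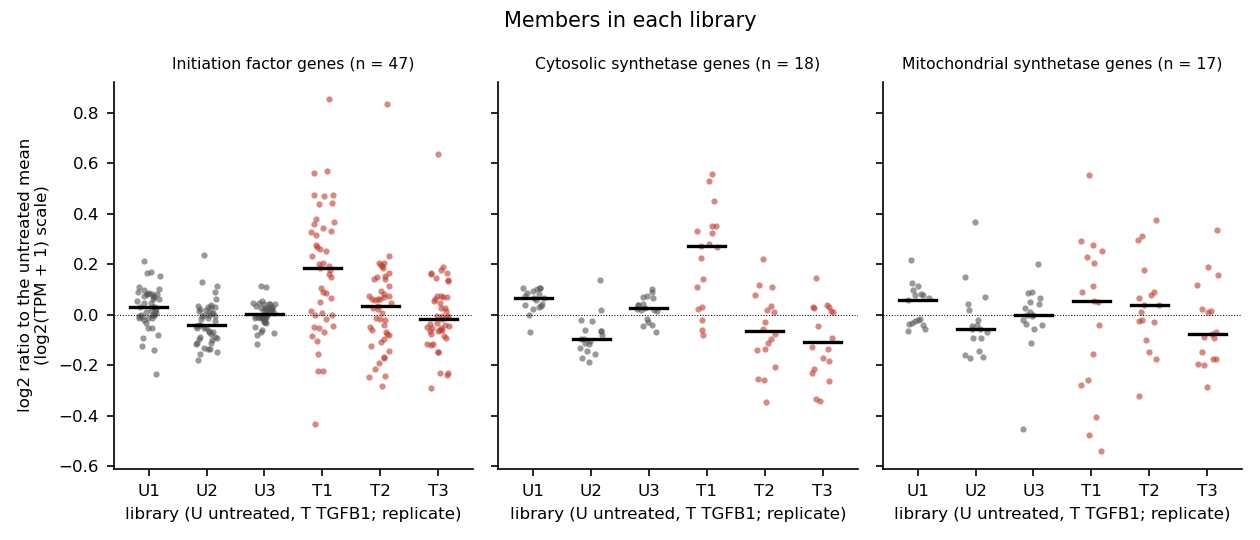
Each point is the log2 ratio of 1 gene in 1 library to its mean over the untreated libraries, on the log2(TPM + 1) scale (U untreated, T TGFB1, numbered by replicate), and bars are medians. The cytosolic synthetase genes sit at a median of 0.27 in T1 and below 0 in T2 and T3, while the medians of the mitochondrial ones stay between −0.08 and 0.06 in all libraries.

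Without TGFB1 replicate 1, 32.2% of all tested genes were called and the members' calls shifted. Of the factor genes, Eif1, Eif4g2 and Eif5a2 were called higher and Eif1a, Eif3k and Eif5a lower. Of the synthetase genes, Rars, Nars and Sars were called lower, at adjusted p from 0.00356 (Sars) to 0.0447 (Rars). Eif4g3 and Iars2 were then not called, at adjusted p of 0.0540 and 0.0639. Leaving out TGFB1 replicate 2, or any 1 untreated library, left Eif5a2 as the only factor gene called higher and no synthetase gene called. In these fits 16.6% to 21.2% of all tested genes were called, against 30.4% with all libraries. Without untreated replicate 1, Eif4b was called lower (log2 fold change −0.44, limma adjusted p = 0.0387). Iars2 lost its call whichever of the 6 libraries was left out, and so did Eif4g3.

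Windows from the starts of cytosolic synthetase genes are shown because these genes shared an order of the libraries. The searched motif is TGATGNAA on both strands, the core of the C/EBP-ATF response element that ATF4 binds with a C/EBP partner. It occurred in 5 of 10 cytosolic synthetase genes with a RefSeq window, in 0 of 14 mitochondrial ones, in 1 of 39 factor genes (Eif2s3x) and in 7 of 22 ATF4 and amino acid response genes, against 4.51% of all 27025 genes with a window (3.97% of 32851 windows). Each line gives 30 bases on the gene's strand, from RefSeq on GRCm38.p6, with the motif or its reverse complement in capitals.
Yars (chr4:129189895-129189924, plus strand): acgagctcagcTGATGCAAcccgacgggac
Gars (chr6:55037960-55037989, plus strand): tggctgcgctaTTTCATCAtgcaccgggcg
Iars (chr13:49682126-49682155, plus strand): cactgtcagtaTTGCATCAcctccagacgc
Tars (chr15:11399655-11399684, minus strand): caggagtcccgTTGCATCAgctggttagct
Chac1 (chr2:119351038-119351067, plus strand): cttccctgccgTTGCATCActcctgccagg
Pycr1 (chr11:120643833-120643862, minus strand): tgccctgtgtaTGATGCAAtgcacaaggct
Asns (chr6:7693214-7693243, minus strand): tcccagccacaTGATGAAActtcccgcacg
The 5 synthetase genes with the motif had log2 fold changes from −0.07 (Yars) to 0.31 (Iars), and none was called. Of the 3 other genes, Chac1 fell (42.9 ± 9.96 to 22.9 ± 3.91 TPM), Pycr1 rose and Asns, the asparagine synthetase gene, was not called (105 ± 13.9 to 92.6 ± 27.3 TPM). Genes that hold these letters thus went in different directions.

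Of the mitochondrial synthetase genes, Iars2 fell. Iars2 (ENSMUSG00000026618, chr1:185284726-185329396, minus strand) is the isoleucyl enzyme gene. It measured 43.2, 45.8 and 44.5 TPM untreated and 36.5, 40.1 and 38.7 TPM with TGFB1. All treated values were below all untreated ones (log2 fold change −0.21, standard error 0.06, limma adjusted p = 0.0464). Its cytosolic counterpart Iars had the opposite sign, and the share of Iars2 in the sum of both was 42.9 ± 2.18% untreated and 34.3 ± 4.34% with TGFB1. Of the 31-base stretches of Iars2 transcripts 23.6% also occur in other genes on either strand, nearly all in Rab3gap2. Whether strand was used in quantification is not given, and Rab3gap2 measured 30.1 ± 0.299 and 28.6 ± 1.84 TPM.

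The mitochondrial genes that were not called had log2 fold changes from −0.24 (Fars2) to 0.35 (Aars2). Aars2, for alanine, measured 5.73, 4.84 and 5.14 TPM untreated and 8.13, 7.08 and 5.75 TPM with TGFB1 (adjusted p = 0.0915). The lowest treated value, 5.749 TPM, barely exceeded the highest untreated one, 5.734 TPM. Lars2, for leucine, was the most abundant mitochondrial synthetase and the least steady. It measured 249, 303 and 171 TPM untreated and 168, 250 and 193 TPM with TGFB1, with overlapping groups and a 95% confidence interval of the log2 fold change from −0.77 to 0.32.

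For 14 amino acids both a cytosolic and a mitochondrial gene were members. The cytosolic gene had the higher mean in 13 of the 14 pairs, with a median ratio of 5.52 and a top ratio of 56.3 for Nars over Nars2. Lars over Lars2 was the exception, at 0.316. The log2 fold changes of the 2 genes of a pair had opposite signs in 7 of 14 pairs, which include the isoleucine and alanine pairs.

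Among genes that partner the synthetases but fall outside the symbol rule, 0 of 17 tested rose and 2 fell, Dtd1 and Gatb (11.8%, against 14.6% of all tested genes called lower and 15.8% called higher). Dtd1 encodes an enzyme that removes D-amino acids from tRNA and went from 20.7 ± 1.42 to 14.4 ± 1.54 TPM (log2 fold change −0.50, limma adjusted p = 0.0114). Gatb encodes a subunit of the complex that makes mitochondrial glutaminyl-tRNA and went from 9.46 ± 1.30 to 6.58 ± 0.606 TPM (−0.46, adjusted p = 0.0269), a call lost without untreated replicate 1 or 3 or TGFB1 replicate 3. Farsa and Farsb, the 2 subunits of the cytosolic phenylalanyl enzyme, had log2 fold changes of 0.20 and 0.15 and were not called.

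Upstream of eIF2, 2 of 9 genes for eIF2 kinases, phosphatase subunits and their regulators rose and 0 fell (22.2%, against 15.8% of all tested genes called higher and 14.6% called lower). Eif2ak3, the gene of the endoplasmic reticulum kinase PERK, measured 8.83, 9.68 and 10.1 TPM untreated and 15.1, 12.7 and 13.7 TPM with TGFB1. All treated libraries were above all untreated ones (log2 fold change 0.49, limma adjusted p = 0.00930). Dnajc3, whose product p58IPK inhibits PERK, went from 42.9 ± 1.4 to 54.3 ± 2.23 TPM (0.33, adjusted p = 0.00866). Eif2ak4, the gene of the amino acid sensor GCN2, was not called (16.7 ± 0.262 and 17.2 ± 0.598 TPM).

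Genes of the ATF4 and amino acid response had calls in both directions. Of 21 tested, 3 rose and 6 fell (42.9%, against 30.4% of all tested genes). Atf4 itself measured 252, 209 and 230 TPM untreated and 260, 200 and 192 TPM with TGFB1, and the groups overlapped (log2 fold change −0.09, limma adjusted p = 0.616). Ddit3, the gene of the stress factor CHOP, measured 146, 107 and 124 TPM untreated and 59.3, 66.0 and 63.3 TPM with TGFB1. Each treated library was below each untreated one, with a log2 fold change of −0.98 and an adjusted p of 0.00196. Cebpb, which encodes a partner of ATF4, measured 483, 468 and 417 TPM untreated and 157, 306 and 298 TPM with TGFB1 (−0.90, adjusted p = 0.0339). Pycr1, of proline synthesis, measured 5.29, 4.11 and 5.27 TPM untreated and 16.1, 8.85 and 8.48 TPM with TGFB1 (0.996, adjusted p = 0.0210). TGFB1 replicate 1 was the highest treated library in 16 of the 21 genes, against 41.2% of all tested genes. Without it, Cebpb stood at −0.59 and Pycr1 at 0.72, both still called, and both lost their calls without any 1 untreated library.

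In the later steps of translation, the calls were 1 cytosolic and 2 mitochondrial factor genes. Of 12 cytosolic elongation and termination factor genes 0 rose and 1 fell, Etf1, the gene of the release factor eRF1, from 184 ± 3.64 to 147 ± 3.95 TPM (log2 fold change −0.32, limma adjusted p = 0.00528). Of 11 mitochondrial factor genes 0 rose and 2 fell. Mtrf1l, a mitochondrial release factor gene, went from 9.76 ± 0.737 to 5.82 ± 0.921 TPM (−0.66, adjusted p = 0.00844), and Guf1, of a mitochondrial elongation factor, from 19.9 ± 0.547 to 14.1 ± 1.08 TPM (−0.47, adjusted p = 0.00582). These are 8.33% and 18.2% called, against 30.4% of all tested genes in either direction and 14.6% in the lower one.

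Among 23 other regulators of initiation and genes of mTOR signalling, 2 rose (Myc and Paip1) and 1 fell (Pabpc1), which is 13.0% against 30.4% of all tested genes. Pabpc1 encodes the poly(A)-binding protein that eIF4G contacts, and measured 896, 878 and 820 TPM untreated and 634, 631 and 616 TPM with TGFB1. All treated values lay far below the untreated ones (log2 fold change −0.46, limma adjusted p = 0.00180). Paip1, whose product joins poly(A)-binding protein to the eIF4 complex, went the other way, from 110 ± 4.76 to 129 ± 3.91 TPM (0.22, adjusted p = 0.0282), and was called in full data and without TGFB1 replicate 1 but not without any other single library. Mtor measured 12.4 ± 0.785 and 10.6 ± 1.07 TPM (−0.22, adjusted p = 0.129).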

How the data were processed

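Gene abundances were measured by poly(A) RNA-seq in 3 untreated and 3 TGFB1 libraries, each made from 250 ng of total RNA with a strand-marking kit, per the labels' protocols. Kallisto 0.44.0, sleuth 0.30.0 and GRCm38 are named in the submitters' processing notes without a role, and the sources used here do not state whether strand was used. The deposited values are a TPM-scale signal, 1 column per library, made by the authors. Column totals differ, so these are not plain TPM, and without read counts no depth or counting interval can be given.

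Of 35688 rows 12257 averaged at least 1 TPM and were tested. limma 3.58.1 (R 4.3.3) was run on log2(TPM + 1), with lmFit and eBayes with an intensity trend, two-sided, with Benjamini-Hochberg adjustment over all tested genes and a call at an adjusted p under 0.05. Fold changes are on that scale, which understates changes of low genes. The steps were tested on simulated data. No set test was made.

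The members and lists were chosen with earlier results of these data known. Values in full are given for called members whose groups did not overlap, for the 3 most abundant and the 3 most abundant level members of each class, for up to 3 called genes of each related list and for 8 regulators; other members named were chosen after their values were seen. In all, 16 alternatives were run: other pseudocounts, filters, scalings, fits, repeated rows removed and each library left out. Gene positions are those of GENCODE M21, which held all 86 member IDs. Shared sequence is the percentage of a gene's distinct 31-base transcript stretches found in another M21 gene, computed with Python 3.11.15. Members with 20% or more are Eif3j2, Eif4ebp3, Eif3j1, Eif3d, Eif2s3x, Eif4a3, Eif4a1, Eif3h, Eif3m, Iars2 and Eif1, and their values are less certain. Start windows are from RefSeq and were matched by symbol for 39 factor and 24 synthetase genes. A called synthetase gene and some start windows count in the totals but are not reported here by name.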

Additional observations from a re-analysis of the deposited data

How the results depend on the processing

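Of the called members named here only Eif5a2 was called in each of the 15 alternatives that tested it, with log2 fold changes from 0.45 to 0.93 and limma adjusted p from 0.00325 to 0.0194; a filter at a mean of 5 TPM left it out. The calls were lost in 5 of 16 alternatives for Eif1, 4 for Eif4g2, 9 for Eif4g3, and 11 for Iars2, with no change of direction. Factor genes called higher numbered 1 to 3 when 1 library was left out and 3 to 6 otherwise, but the genes differed. With no filter the 4 were Eif5a2, Eif4g2, Eif4g3 and Eif4e3, and Eif1 was not called. Eif4e3, too low for the main fit, had means of 0.112 TPM untreated and 0.339 TPM with TGFB1 (log2 fold change 0.27, limma adjusted p = 0.0130). Factor genes called lower numbered 0 to 3 when 1 library was left out and 1 with the replicate block. Synthetase genes called higher numbered 0 with no filter, 2 after rescaling without mitochondrially encoded genes and the 20 most abundant genes, and 2 with the replicate block. Those called lower numbered 2 with median-of-ratios scaling and 0 with no filter, quantile normalization, that rescaling or no intensity trend. Leaving out 1 library gave 0 to 1 synthetase genes called higher and 0 to 3 called lower. Over all tested genes it gave 1113 to 2024 called higher and 917 to 1926 called lower, against 1937 and 1788, and the rescaling gave 2393 higher and 1419 lower. The causes of these shifts were not tested. Near-level genes changed sign: Eif4a1 was at 0.12 with quantile normalization, 0.039 after the rescaling and −0.067 to 0.044 with 1 library left out, Qars at 0.012, 0.045 and −0.040 to 0.064, and Kars at −0.012 with median-of-ratios scaling and −0.12 to 0.084 with 1 library left out. Related genes that lost their calls were Myc in 9 alternatives, Cebpb and Paip1 in 5 each and Gatb and Pycr1 in 4 each. The labels do not say that replicate numbers pair the samples, and the main fit did not pair them. Deviations of same-numbered libraries correlated at 0.20, 0.15 and −0.04 across genes, and those of differently numbered ones at −0.23 to 0.18. These values do not settle whether the samples were paired. The replicate block called 6 factor genes higher (Eif1, Eif2b3, Eif4g1, Eif4g2, Eif5 and Eif5a2) and 1 (Eif4b) lower. These are 14.9% of the 47 factor genes, against 31.2% of all tested genes in that fit. Of them, Eif2b3 (limma adjusted p = 0.0387), Eif4g1 (0.0394) and Eif5 (0.0438) were among those not called in the main fit. With 3 libraries per group and unknown depth, small changes of low genes cannot be resolved.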
